A study of Mus musculus with 6 samples.

Results

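Regional identity of the forebrain was read through 9 transcription factor genes, Emx1, Emx2, Lhx2, Otx1, Otx2, Dlx1, Dlx2, Gsx2 and Zbtb20, out of 19937 genes named on the array. They were chosen by name, and each was represented by its probe set under a single gene symbol, or by the brighter one where there were several. The samples were primary neurospheres, floating colonies formed by neural precursor cells, grown in EGF and bFGF. Their source was hippocampal tissue of C57BL/6J mice, all adult males between 8 and 12 weeks old. In 3 samples 10 µM norepinephrine was present, and in the other 3 samples 15 mM KCl. Day 14 was the time of collection for what the labels name big neurospheres, and each sample was run on 1 array. No untreated samples were analysed here, so a difference is norepinephrine minus KCl and cannot be placed against an untreated level. The labels name biological replicates without saying whether each was a separate animal or culture, so p-values here cover only the spread among these samples, which may be technical.

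These factors divide the embryonic forebrain into territories. Emx1, Emx2 and Lhx2 are homeodomain proteins of the dorsal telencephalon, the source of cortex and hippocampus, and in mice the hippocampus forms poorly or not at all when Emx2 or Lhx2 is lost. Otx1 and Otx2 are homeodomain proteins of the anterior brain, with Otx2 needed in the mouse for the forebrain to form and kept later in the choroid plexus. Gsx2 acts in progenitors of the ventral telencephalon, where Dlx1 and Dlx2 drive the formation of GABAergic interneurons. Zbtb20, a zinc finger repressor, sets hippocampal pyramidal cell identity in mice and is also present in astrocytes.

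Promoters are shown for both Emx genes, because these paralogues gave differences of opposite sign, and for Otx2 and Dlx2, because their groups, like those of Emx2, did not overlap once trends with array brightness were evened out, as described further on. Each is the 250 bases before a RefSeq transcript start that is also the outermost start of its gene (build GRCm38.p6), written 5′ to 3′ on the gene's strand. Capitals mark TAAT or its reverse complement ATTA, the core that many homeodomain proteins bind. The Emx2 window lies at chr19:59458440-59458689 on the + strand and overlaps the span of the noncoding gene Emx2os. That of Emx1 lies at chr6:85187681-85187930 (+), that of Otx2 at chr14:48667645-48667894 (-) and that of Dlx2 at chr2:71546755-71547004 (-).
Emx2: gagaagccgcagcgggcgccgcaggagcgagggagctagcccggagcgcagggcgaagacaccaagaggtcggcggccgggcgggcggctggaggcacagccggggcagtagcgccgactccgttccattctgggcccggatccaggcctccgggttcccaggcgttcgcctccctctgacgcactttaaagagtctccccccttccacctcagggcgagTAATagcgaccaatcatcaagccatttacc
Emx1: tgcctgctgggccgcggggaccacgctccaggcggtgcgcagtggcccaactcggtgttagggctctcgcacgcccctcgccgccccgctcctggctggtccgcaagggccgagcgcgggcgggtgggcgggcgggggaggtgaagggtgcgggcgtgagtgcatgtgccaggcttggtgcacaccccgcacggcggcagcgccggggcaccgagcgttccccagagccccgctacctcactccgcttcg
Otx2: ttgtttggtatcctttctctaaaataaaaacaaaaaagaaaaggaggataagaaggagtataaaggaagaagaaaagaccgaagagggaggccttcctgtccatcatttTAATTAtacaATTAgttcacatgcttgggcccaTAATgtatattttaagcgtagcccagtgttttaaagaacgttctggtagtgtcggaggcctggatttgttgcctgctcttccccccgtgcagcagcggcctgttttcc
Dlx2: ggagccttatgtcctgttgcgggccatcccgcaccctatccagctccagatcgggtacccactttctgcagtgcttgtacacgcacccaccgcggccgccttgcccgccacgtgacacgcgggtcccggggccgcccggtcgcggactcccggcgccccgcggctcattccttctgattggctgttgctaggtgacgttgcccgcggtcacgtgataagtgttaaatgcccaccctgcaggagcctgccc

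The Emx2 window holds 1 core and 24 CpG dinucleotides, and those of Emx1 and Dlx2 hold 0 cores with 30 and 24 CpG. The Otx2 window holds 4 core matches over both strands, of which a pair overlap in its single TAATTA, and 6 CpG. Over 32851 promoter windows of this length the median was 6 CpG, 54.9% held TAAT on either strand and 4.84% held TAATTA. RefSeq gave 12 windows for 8 of the factors. Of these windows 7 held TAAT on either strand and 2, both of Otx2, held TAATTA. The windows of Emx1, Emx2, Lhx2, Dlx1, Dlx2 and Gsx2 held 16 to 30 CpG, those of Otx2 6 to 14 and that of Zbtb20 3. A match is a run of letters and not a shown binding site.

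All array values are log2 expression values. Across 21640 named probe sets the array of KCl replicate 1 stood apart, with a standard deviation of 1.38 against 1.62 to 1.78 on the other 5 arrays. On that array the dim tercile of probe sets had a median deviation of 0.44 from their own 6-array means and the bright tercile one of -0.35. Results are for this reason also given with that array left out. Of the 21640 named probe sets 15148 lay above the 30th percentile of mean brightness. Of the neural stem cell markers all 16 measured genes had means above it. For astrocyte markers it was 15 of 15, and for the oligodendrocyte lineage 10 of 11. For microglia it was 5 of 11, and for Cajal-Retzius neurons, the early hippocampal neurons, 2 of 7. Array values have no true zero, and with no measure of background a dim reading does not show that a gene is off. Of the regional factors 7 lay above that percentile, while Otx2 and Dlx1 lay below it and Dlx2 and Gsx2 just above, at means of 6.45 and 6.46 where the percentile was 6.45.

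Among the dorsal factors, Emx2 had the largest difference of the 9 genes in either direction. It read 7.94, 7.46 and 7.60 with norepinephrine, against 7.29, 7.14 and 7.51 with KCl. The highest norepinephrine array stood clear of all others, but KCl replicate 3 read above norepinephrine replicate 2, so the groups overlapped. The means were 7.67 ± 0.25 with norepinephrine and 7.31 ± 0.19 with KCl (SD, n = 3 each). The difference was 0.36 ± 0.21 (log2, SE), or 1.28-fold, with a 95% interval from -0.12 to 0.83, and limma gave an unadjusted p of 0.123 and an adjusted p of 0.939. Leaving out KCl replicate 1 gave 0.34, and leaving out norepinephrine replicate 1, the highest array, gave 0.22.

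Emx1, the paralogue of Emx2, stood on the other side of 0. It read 8.22, 7.93 and 8.06 with norepinephrine, against 8.68, 7.82 and 8.29 with KCl. KCl replicates held both the highest and the lowest reading, and all norepinephrine readings lay between them. The difference was -0.19 ± 0.25 with a 95% interval from -0.75 to 0.37, and it was 0.015 without KCl replicate 1. Lhx2, a LIM-homeodomain selector of cortical fate, read 9.004, 8.610 and 9.035 with norepinephrine, against 8.552, 8.449 and 8.987 with KCl. Its groups overlapped widely, since KCl replicate 3 read just below the brighter norepinephrine arrays and above norepinephrine replicate 2. Its difference was 0.22 ± 0.22 with a 95% interval from -0.29 to 0.73. It was 0.17 without KCl replicate 1, 0.11 without KCl replicate 2 and 0.38 without KCl replicate 3, and 0.07 after a further quantile normalization.

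Zbtb20, the factor of hippocampal pyramidal identity, was read by 2 probe sets. The brighter read 9.83, 10.14 and 10.36 with norepinephrine, against 9.43, 10.15 and 10.56 with KCl. The other read 9.54, 9.66 and 9.59 with norepinephrine, against 8.81, 9.32 and 10.16 with KCl. On both, KCl replicate 1 was lowest and KCl replicate 3 highest of all arrays, so the norepinephrine readings fell inside the KCl range. The differences were 0.06 ± 0.30 and 0.16 ± 0.32. For the brighter probe set the 95% interval ran from -0.62 to 0.74, and its difference was -0.25 without KCl replicate 1.

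The anterior factors gave differences near 0. Otx1 read 7.48, 7.43 and 7.66 with norepinephrine, against 8.05, 7.19 and 7.47 with KCl, a difference of -0.05 ± 0.25. Otx2 read 5.90, 5.69 and 5.76 with norepinephrine, against 6.15, 5.33 and 5.69 with KCl, a difference of 0.06 ± 0.24. For both genes KCl replicate 1 was the highest array and KCl replicate 2 the lowest. Without KCl replicate 1 the differences were 0.19 for Otx1 and 0.28 for Otx2. The 95% intervals on 6 arrays were -0.61 to 0.51 for Otx1 and -0.48 to 0.61 for Otx2.

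The ventral factors gave small differences whose sign rested on single arrays. Gsx2 read 6.58, 6.35 and 6.37 with norepinephrine, against 6.83, 6.16 and 6.47 with KCl. Dlx1 read 6.49, 6.15 and 6.38 with norepinephrine, against 6.81, 6.04 and 6.40 with KCl. Dlx2 read 6.53, 6.29 and 6.50 with norepinephrine, against 6.80, 6.12 and 6.47 with KCl. In all 3 genes the KCl arrays held both extremes and the norepinephrine arrays lay inside them. The differences were -0.05 ± 0.22 for Gsx2, -0.08 ± 0.24 for Dlx1 and -0.02 ± 0.22 for Dlx2. All 3 lay on the other side of 0 without KCl replicate 1, at 0.12, 0.12 and 0.15, and were -0.22, -0.27 and -0.19 without KCl replicate 2. Their 95% intervals lay between -0.62 and 0.48, so differences of up to about that size in either direction remain within the error. Dlx1as, the noncoding partner of Dlx1 at the same locus, read 6.50, 6.34 and 6.58 with norepinephrine, against 6.96, 6.56 and 6.63 with KCl. Its difference was -0.24 ± 0.19, or -0.12 without KCl replicate 1. No label or file used here names the strand that the probe sets read.

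**Figure D1:**
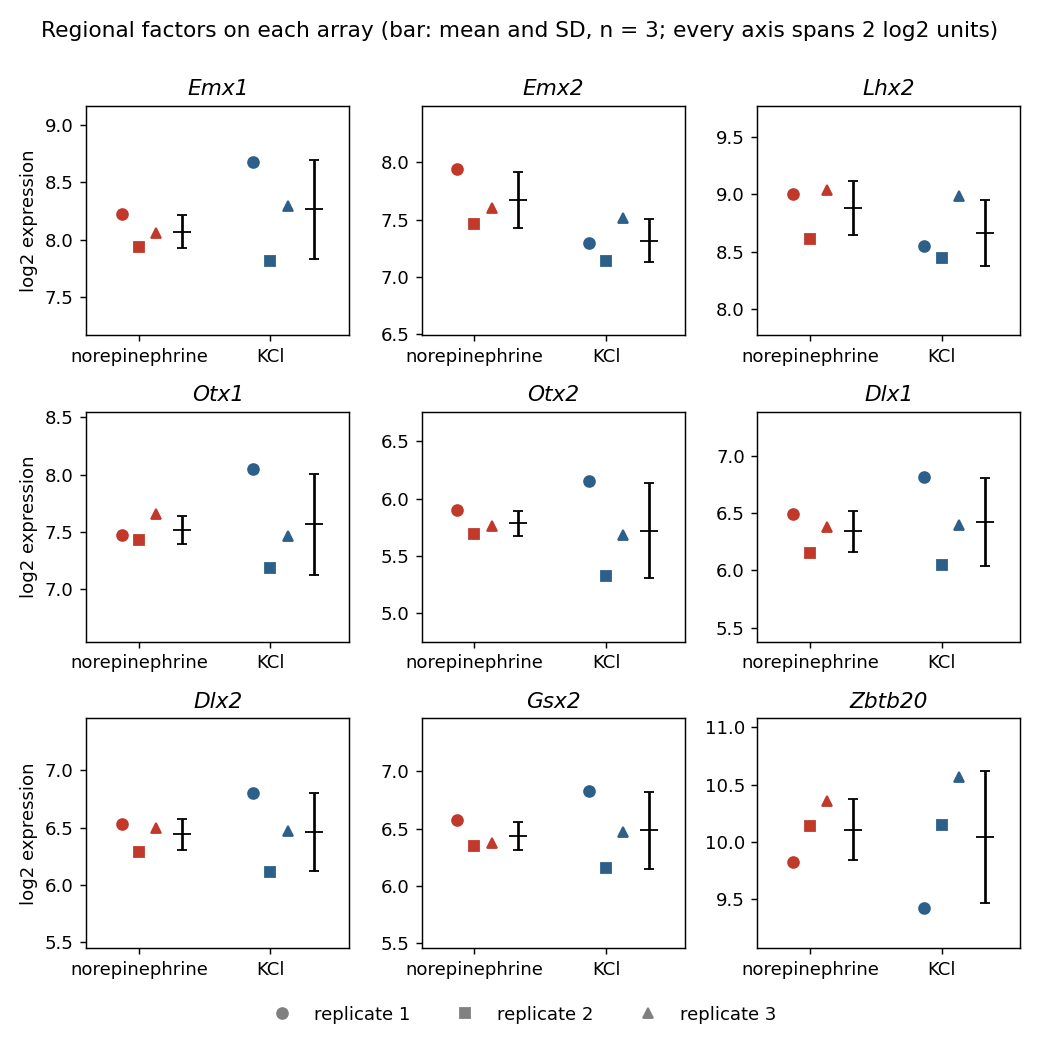
Log2 expression of the 9 factors on each array, norepinephrine in red and KCl in blue, with marker shape for the replicate number and a black bar for mean and SD (n = 3 each). Every axis spans the same width of log2 units, and in 8 of 9 genes the KCl readings cover a wider range than the norepinephrine readings.

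By limma with Benjamini-Hochberg adjustment over all named probe sets, 0 of the 9 factors passed an adjusted p of 0.05, and the background was 0.0% of 21640 probe sets. At an unadjusted p under 0.05 there were also 0 of 9, where the background was 3.43%. The groups overlapped in all 9 genes, and over all named probe sets they did not overlap in 9.13%. Norepinephrine minus KCl was above 0 for 4 of the 9 genes, beside 38.0% of all named probe sets, and the median was -0.02 for the 9 beside -0.07 for all. When KCl replicate 1 was left out, 8 of the 9 genes stood above 0, all but Zbtb20, with a median of 0.15, while 52.2% of all named probe sets stood above 0 with a median of 0.0083. On those 5 arrays the groups did not overlap in 1 of the 9, Otx2, beside a background of 16.2%. Leaving out KCl replicate 2 instead gave 3 of 9 genes above 0, beside 36.7% of all named probe sets, and a median of -0.19, beside -0.16. There the groups did not overlap in Emx1, higher with KCl, beside 6175 of 21640 named probe sets in this direction. Without norepinephrine replicate 2 or KCl replicate 3 they did not overlap in Emx2 and Lhx2, higher with norepinephrine. The background in this direction was 1585 and 1455 of 21640. Fewer cells of a type and less RNA per cell cannot be told apart in such bulk samples.

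**Figure D2:**
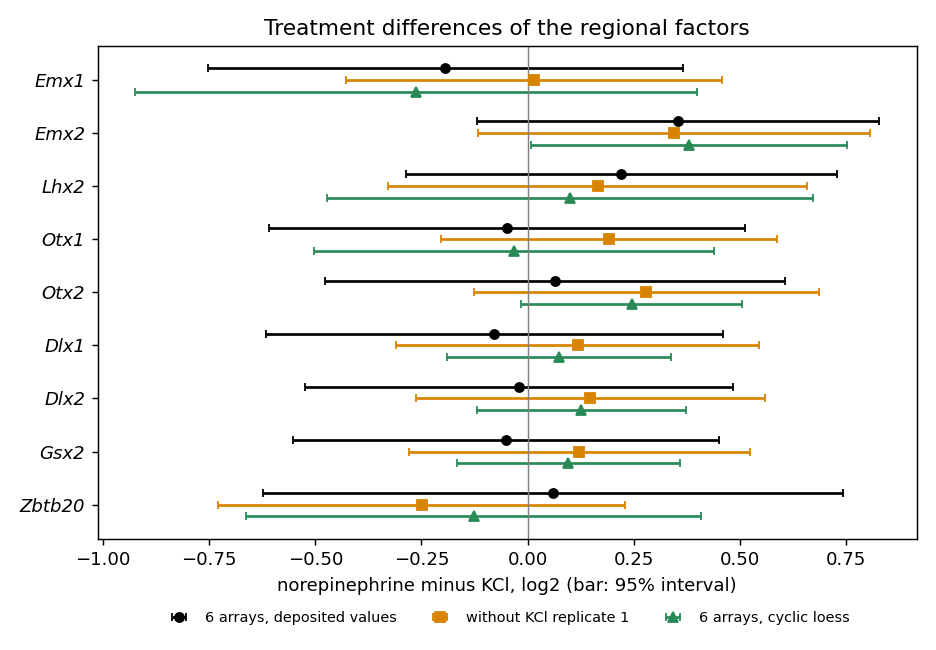
Norepinephrine minus KCl in log2 units for each factor, with 95% intervals from limma, on the deposited values of 6 arrays, without KCl replicate 1, and after cyclic loess. On the deposited values every interval spans 0, and after cyclic loess only that of Emx2 starts above 0, at 0.0078.

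Readings of the factors varied between arrays of the same treatment. The range over the KCl arrays was wider than that over the norepinephrine arrays in 8 of 9 genes, Emx2 being the exception at 0.48 with norepinephrine and 0.37 with KCl. KCl replicate 1 was the highest array for 6 genes, Emx1, Otx1, Otx2, Dlx1, Dlx2 and Gsx2, and KCl replicate 2 was the lowest for 8 genes, all but Zbtb20. On KCl replicate 1 the 4 factors in the dim tercile of probe sets, Otx2, Dlx1, Dlx2 and Gsx2, lay 0.35 to 0.43 above their own means, where the dim tercile as a whole had a median of 0.44. On KCl replicate 2 the same genes lay 0.30 to 0.43 below their means, where that tercile had a median of -0.21. Zbtb20, in the bright tercile, lay 0.65 below its mean on KCl replicate 1, where the bright tercile had a median of -0.35. Emx1, although also in the bright tercile, lay 0.51 above its mean there.

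**Figure D3:**
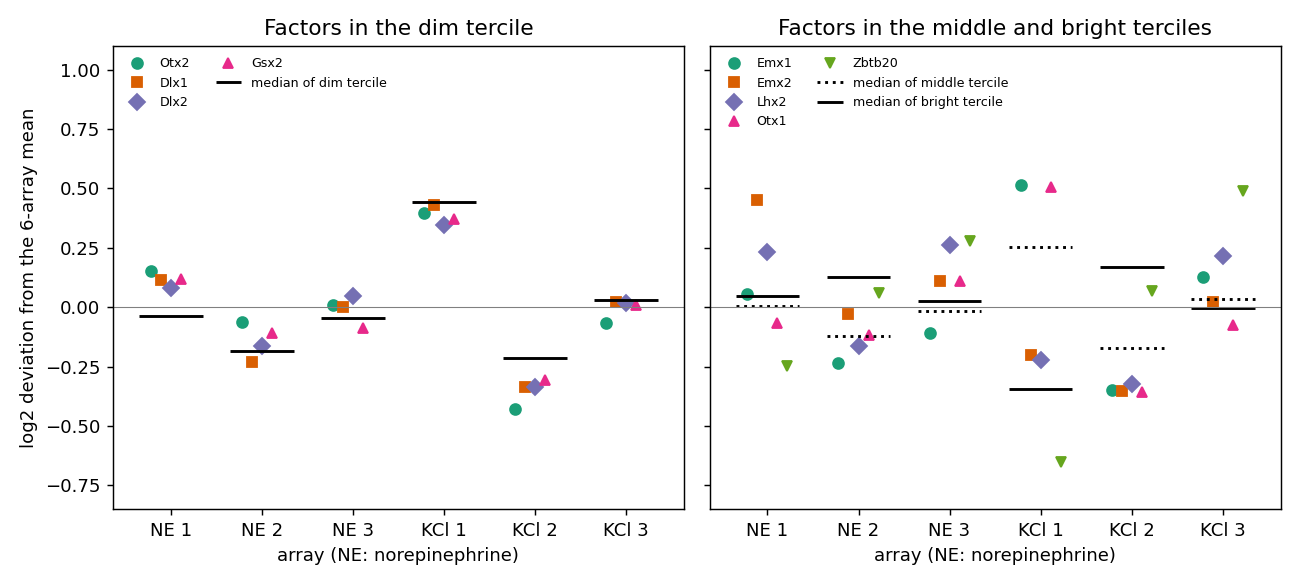
Deviation of each factor from its own mean over 6 arrays, in log2 units, with factors of the dim tercile of probe sets on the left and of the middle and bright terciles on the right. Horizontal lines are the medians of all named probe sets of a tercile, and the 4 dim factors lie near that line on KCl replicate 1.

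Cyclic loess, which evens out such trends with brightness between arrays and was added after the data were seen, changed the spread of the dim factors. The standard deviation over 6 arrays was 0.078 for Dlx1, 0.077 for Dlx2 and 0.083 for Gsx2 after it, against 0.27, 0.23 and 0.23 in the deposited values. For Otx2 it was 0.15 after it, against 0.27, but for Emx1 it was 0.40, against 0.31. On these values Emx2 ran from 7.51 to 7.92 with norepinephrine, against 7.19 to 7.50 with KCl. Otx2 ran from 5.81 to 5.95 with norepinephrine, against 5.56 to 5.70 with KCl, and Dlx2 from 6.48 to 6.55 with norepinephrine, against 6.36 to 6.43 with KCl. These 3 of 9 genes no longer overlapped, all higher with norepinephrine, beside a background of 11.6% in either direction and 6.12% in this one. Of the 9 genes 6 stood above 0, beside 49.1% of named probe sets. Their differences were 0.38 ± 0.16 for Emx2, 0.25 ± 0.11 for Otx2 and 0.13 ± 0.10 for Dlx2, with limma's adjusted p = 0.916, 0.921 and 0.931. At an unadjusted p under 0.05 stood 1 of 9, Emx2 at 0.0465, beside a background of 5.35%.

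The paralogues were also set against each other within each array, which cancels what an array adds to both genes alike. A trend with brightness need not cancel. Emx2 lies in the middle tercile and Emx1 in the bright one, whose median deviations on KCl replicate 1 were 0.26 and -0.35. The log2 ratio of Emx2 to Emx1, given relative to its mean over 6 arrays, was 0.40, 0.21 and 0.22 with norepinephrine, against -0.71, -0.0043 and -0.11 with KCl. All norepinephrine arrays lay above all KCl arrays, with KCl replicate 1 far below the rest. The share of other gene pairs whose ratios separate in this way was not computed. The ratio differed by 0.55 between the groups (exact permutation test, two-sided, p = 0.1, and 0.3 after adjustment over the 3 pairs), and 0.1 is the smallest p that 3 against 3 samples allow. Without KCl replicate 1 the ratio differed by 0.33. For Otx2 over Otx1 the ratio differed by 0.11, and for Dlx2 over Dlx1 by 0.058 (exact permutation p = 0.3 for each), or by 0.088 and 0.030 without that array. Dlx1 and Dlx2, neighbours on chromosome 2, followed each other most closely of all the factors, with a root mean square difference of 0.051 between their centred readings on the 6 arrays.

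By that measure, and among 13001 genes above the 30th percentile of brightness, the gene most like Dlx1 was Neurog2, a proneural factor of the dorsal telencephalon, at 0.022. Emx2 was nearest to Dagla, an enzyme that makes the endocannabinoid 2-arachidonoylglycerol, at 0.026, and Lhx2 to Zfp553 at 0.041. The nearest genes to Emx1, Otx1 and Otx2 were Derl3, Ephb6 and Foxe1. Those to Dlx2, Gsx2 and Zbtb20 were Il19, Zfp629 and Phxr4, with 0.066 for Zbtb20 the largest distance. Dlx1 lay nearer to Neurog2, and Dlx2 to Il19 at 0.017, than they lay to each other at 0.051. These likenesses run over 6 arrays that share the brightness trend described above.

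The other regional genes were read in lists for each territory. Of 25 measured further factors of the dorsal telencephalon and hippocampus, 0 passed the adjusted test in either direction and 5 stood above 0, with a median of -0.08. Lef1, the Wnt-responsive factor needed for the mouse dentate gyrus, read 6.62 ± 0.11 with norepinephrine and 7.07 ± 0.29 with KCl (SD, n = 3 each), a difference of -0.46 ± 0.21 (SE). Nr2f2, a nuclear receptor of caudal telencephalon, differed by -0.43 ± 0.23, and Nfix, a nuclear factor of glial and stem cell maturation, by 0.70 ± 0.36. Without KCl replicate 1 these 3 differences were -0.31, -0.27 and 0.50, and the list median was 0.08 with 15 genes above 0. After cyclic loess the list median was -0.04 with 9 genes above 0.

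Among 22 further factors of the ventral telencephalon 0 passed in either direction and 5 stood above 0, with a median of -0.12, or -0.05 without KCl replicate 1. Ebf1, a factor of differentiating striatal neurons, read 5.59, 5.29 and 5.34 with norepinephrine, against 5.97, 6.00 and 5.81 with KCl. Its groups did not overlap, as in 9.13% of all named probe sets. The difference was -0.52 ± 0.18, with limma's unadjusted p = 0.0204 and adjusted p = 0.939. It was -0.50 without KCl replicate 1 and -0.34 after cyclic loess. All Ebf1 readings were dim, below the 30th percentile of mean brightness at 6.45. Pbx3 stood at -0.30 ± 0.21 and Helt at -0.29 ± 0.22, or at -0.46 and -0.11 without KCl replicate 1.

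Factors of other brain regions served as a contrast. Of 18 factors of the diencephalon, hypothalamus and retina 1 stood above 0 (median -0.15), led by Irx2 at -0.34 ± 0.23, Sim1 at -0.34 ± 0.29 and Irx1 at -0.25 ± 0.24. Of 30 factors of midbrain, hindbrain and spinal cord 1 stood above 0 (median -0.20). That gene was Egr2, which is also induced by neuronal activity, at 0.70 ± 0.40, while Pax7 and Pax3 stood at -0.34 ± 0.22 and -0.32 ± 0.21. In neither list did a gene pass the adjusted test, with 0 of 18 and 0 of 30. Without KCl replicate 1 the medians were 0.04 and 0.01, with 12 of 18 and 16 of 30 genes above 0, and the Egr2 difference was 0.22. Without that array Irx2, Sim1 and Irx1 stood at -0.21, -0.05 and -0.05, and Pax7 and Pax3 at -0.16 and -0.20. After cyclic loess the list medians were -0.07 and -0.06, with 5 of 18 and 8 of 30 genes above 0.

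Signals and partners of the factors were read last. Of 33 patterning signals and antagonists 0 passed and 11 stood above 0, with a median of -0.11, or -0.0091 with KCl replicate 1 left out. Sfrp1, a secreted Wnt antagonist, read 6.73, 6.62 and 6.82 with norepinephrine, against 7.17, 6.95 and 7.25 with KCl, and differed by -0.40 ± 0.18. Spry2, a feedback inhibitor of FGF signalling, stood at 0.45 ± 0.30, or 0.14 without KCl replicate 1, and the Wnt potentiator Rspo2 at -0.29 ± 0.20, or -0.18 without that array. Of 22 cofactors 0 passed and 12 stood above 0, with a median of 0.0022, or -0.08 without KCl replicate 1. Lmo4, a LIM-only protein that competes with LIM-homeodomain factors such as Lhx2 for the adaptor Ldb1, read 9.77, 9.75 and 9.74 with norepinephrine, against 10.71, 10.16 and 10.06 with KCl. Its difference was -0.56 ± 0.22 with limma's unadjusted p = 0.0307 and adjusted p = 0.939, or -0.36 without KCl replicate 1 and -0.74 after cyclic loess. Ldb2, a LIM domain adaptor, and Lmo1 stood at 0.38 ± 0.19 and 0.39 ± 0.21.

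**Figure D4:**
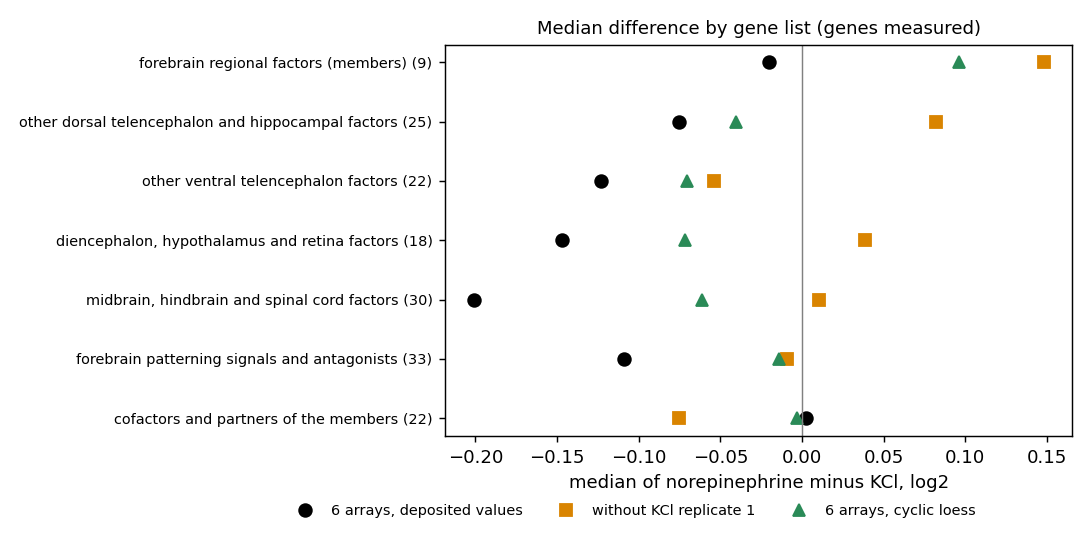
Median of norepinephrine minus KCl in log2 units for the 9 factors and 6 other gene lists, with the number of genes measured in brackets, on the deposited values, without KCl replicate 1 and after cyclic loess. Without KCl replicate 1 the medians of the 9 factors and of the dorsal, diencephalic and hindbrain lists lie above 0. That of the cofactors lies below 0 there. Each of these medians is on the other side of 0 from its value on 6 arrays. After cyclic loess the median of the 9 factors is 0.10. Those of the dorsal, diencephalic and hindbrain lists stay below 0 after it, at -0.04, -0.07 and -0.06.

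Markers of cell types that the spheres could hold were read beside the factors. Of 15 astrocyte markers 14 stood above 0, the list mean being 9.70 to 9.77 with norepinephrine, against 8.64 to 9.16 with KCl. The lowest of these means, 8.64, was that of KCl replicate 1. The list median was 0.69, or 0.41 with 13 of 15 above 0 without that array, and 0.45 after cyclic loess. Ndrg2, Gfap and Apoe led at 1.40, 1.89 and 1.20, or 1.20, 2.17 and 1.24 without KCl replicate 1. The neural stem list shares Gfap and Slc1a3 with the astrocyte list, so these lists are not independent. Its means were 9.17 to 9.28 with norepinephrine, against 8.93 to 9.08 with KCl, and include Gfap at its difference of 1.89. In it 9 of 16 genes stood above 0 with a median of 0.02. Without KCl replicate 1 these were 10 of 16 and 0.12, and after cyclic loess 7 of 16 and -0.07. Beside Gfap, Prom1 stood at 0.60 and Vim at 0.44, or 0.66 and 0.28 without KCl replicate 1. Neuroblast and interneuron markers, the cells in which Dlx genes are best known, had 7 of 15 above 0 and list means of 6.51 to 6.68 with norepinephrine, against 6.37 to 6.83 with KCl. Without KCl replicate 1, 11 of these 15 stood above 0. Tubb3 and Pvalb stood at 0.47 and 0.58 and Slc17a6 at -0.30, or at 0.44, 0.73 and -0.30 without that array. Choroid plexus and ependyma markers, which bear on Otx2, had 3 of 12 above 0 and list means of 6.27 to 6.38 with norepinephrine, against 6.14 to 6.75 with KCl. For these 12 the number above 0 was 6 without KCl replicate 1 and 7 after cyclic loess. Rsph1 stood at 0.35, Tmem212 at -0.39 and Folr1 at -0.33, or at 0.41, -0.21 and -0.14 without KCl replicate 1. Of the other marker lists, oligodendrocyte lineage markers had 6 of 11 above 0 and microglia markers 0 of 11. The microglia list had a median of -0.25 that became 0.01 once KCl replicate 1 was left out. After cyclic loess it was -0.06 with 3 of 11 above 0. None of the genes in these lists passed the adjusted test on the 6 arrays. Their part in the differences of the regional factors was not tested.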

How the data were processed

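The authors deposited 1 log2 expression value for each probe set and array, made with Partek and RMA, per the submitters' processing notes, with versions and settings not given in the sources used here. Of 34760 probe sets 21640 had a single gene symbol in the platform annotation (1321 several, 11799 none). For a gene with several probe sets the one of highest mean was used. Treatments were compared with limma 3.58.1 in R 4.3.3 (lmFit, eBayes) on all named probe sets of the 6 arrays, two-sided, without covariates and with Benjamini-Hochberg adjustment at 0.05. The script was tested on simulated data. Exact permutation tests used scipy 1.17.1. The number of arrays limits the precision, and no scanner files were used here.

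The factors and gene lists were chosen with earlier results of these data known. Singly named genes were all 9 factors, the 3 of smallest p in each list that is described, and the nearest gene in pattern, small RNA genes, predicted genes, clones and olfactory or vomeronasal receptors being left out. Of the marker lists, only leading genes of those that bear on the factors are named, and Dlx1as was the 1 measured entry of a noncoding list. Alternatives were other scalings, dim filters, variance moderation, array weights, a replicate block, other probe set choices and leaving out each array. Cyclic loess, gene-by-gene array weights and quantile normalization without KCl replicate 1 were added after the data were seen, as were the paralogue ratios. Promoter sequences are RefSeq's for GRCm38.p6.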

Additional observations from a re-analysis of the deposited data

How the results depend on the processing

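With 3 arrays per group and 1 array that stands apart, small differences are within the error, and the signs near 0 depend on the scaling. Emx2 alone kept its sign under all 20 alternatives, from 0.18 to 0.46. On all named probe sets 0 passed, against 0 to 4 with 1 array left out, 1 after quantile normalization of the 5 arrays other than KCl replicate 1, and 5670 and 1454 with array weights by the default and the gene-by-gene method. The default estimate did not converge and gave KCl replicate 3 a weight of 672.7, against 0.0582 for KCl replicate 1, so its counts rest on 1 KCl array. With it 1 of the 9 factors passed, Zbtb20 at -0.43 (adjusted p = 0.0221), and 0 with the gene-by-gene method, at -0.38 (adjusted p = 0.166).

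The number of factors above 0 was 3 to 8, and their median -0.19 to 0.15, with 1 array left out, and 7 and 0.13 for the 5 arrays after quantile normalization. With 1 array left out, differences ranged from -0.42 to 0.015 for Emx1, 0.11 to 0.38 for Lhx2, -0.24 to 0.19 for Otx1, -0.13 to 0.28 for Otx2, -0.27 to 0.12 for Dlx1, -0.19 to 0.15 for Dlx2, -0.22 to 0.12 for Gsx2 and -0.25 to 0.32 for Zbtb20. Signs also turned for Dlx1, Dlx2, Gsx2 and Zbtb20 after a further quantile normalization (0.024, 0.083, 0.048 and -0.11), with a common interquartile range (0.027, 0.083, 0.048 and -0.22), after cyclic loess (0.074, 0.13, 0.096 and -0.13) and, with Otx1 at 0.17, after quantile normalization of the 5 arrays (0.099, 0.13, 0.10 and -0.23). Centring turned Dlx2 (0.018). Default weights turned Lhx2 (-0.034), Otx1 (0.088), Dlx2 (0.0064) and Zbtb20 (-0.43), and gene-by-gene weights Otx1 (0.090), Dlx2 (0.018) and Zbtb20 (-0.38). The cause was not tested.

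The filters on dim probe sets left 7 and 5 of the factors, so Otx2 and Dlx1, and then Dlx2 and Gsx2, had no value there. The replicate block gave 0 probe sets and 0 factors past the threshold. The labels do not say whether arrays of equal number share an animal or culture. The deviations of same-numbered arrays correlated at 0.30, 0.63 and 0.085, and norepinephrine replicate 3 correlated better with KCl replicate 1 (0.31). These correlations cannot decide it, because trends with brightness between arrays also enter them. At an unadjusted p under 0.05 the block gave 918 probe sets above 0 and 518 below, against 475 and 268 without it.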
